A study of Homo sapiens with 3 samples.

Results

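The region described is the stretch of human chromosome 17 around SOX9, a gene next to the 17q24.3 prostate cancer risk locus that the study's title names. Its members are all H3K36me3 peaks that overlap chromosome 17 from 66 to 71.7 Mb in the hg19 build. Peaks were taken by position alone, but the interval itself was chosen with earlier results of these data known. There were 239 such peaks among the 131798 nuclear peaks of the DHT library and 199 among the 117564 of the untreated library. By the borders of the same rule, the interval was divided into a gene desert from 68.2 to 70.1 Mb, a SOX9 interval from 70.117 to 70.123 Mb, and a flank with genes on either side. The flank before the desert measured 2200 kb and the flank after SOX9 1577 kb. The remaining 17 kb between desert and SOX9 held no peak in either library.

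The peaks come from chromatin immunoprecipitation sequencing (ChIP-seq) with an antibody to histone H3 trimethylated at lysine 36, in LNCaP, a prostate cancer cell line that responds to androgen. The DHT library was made from cells given 100 nM dihydrotestosterone (DHT, a potent androgen) for 4 h in a medium the labels call red-free, and the untreated library from cells labelled as having no treatment. Both were grown in RPMI with serum. A change of medium therefore cannot be told apart from the hormone. With 1 library for each condition there is no test of DHT against no treatment. All intervals below are 95% counting intervals that treat peaks as independent and do not cover the spread between libraries. The depth behind each peak is unknown, since the sources used here give no read numbers. The score of a peak is the authors' value on a scale that is not stated, it starts at 50 in both lists, and it is used here to rank peaks within their own list. Where scores of both libraries are printed side by side, they are not a measure of a difference in strength between the libraries.

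SOX9 encodes a transcription factor of the SRY-related HMG-box family that directs cartilage formation, testis determination and the growth of several epithelia, the prostate among them. Its control elements are spread over a very long stretch that lacks protein-coding genes, and rearrangements within that stretch cause skeletal and sex-development disorders although they leave the coding sequence intact. H3K36me3 is laid down by SETD2 behind elongating RNA polymerase II, so it marks the bodies of transcribed genes, and it is not the mark by which enhancers are usually found. A peak list of this mark thus speaks to transcribed sequence around SOX9 and not to the activity of a distant enhancer.

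In the order of the RefSeq table for GRCh38.p14, the protein-coding genes just before SOX9 are KCNJ2 and KCNJ16, which encode inward-rectifier potassium channels, and MAP2K6, a kinase that activates p38. Before these stand ABCA5, ABCA10, ABCA6, ABCA9 and ABCA8, a cluster of ATP-binding cassette transporters, then FAM20A, which encodes a secreted pseudokinase, and WIPI1, an autophagy factor. After SOX9 come SLC39A11, a zinc transporter, SSTR2, a somatostatin receptor, COG1, a subunit of a Golgi tethering complex, VCF1, MTNAP1, CPSF4L, CDC42EP4, an effector of the small GTPase CDC42, SDK2, a cell adhesion protein, RPL38, a ribosomal protein, and TTYH2. Between KCNJ2 and SOX9 the table holds 15 genes, none of them protein-coding. Of these, 10 are long non-coding RNAs, among them CASC17, ROCR, LINC01152 and SOX9-AS1. Between SOX9 and SLC39A11 it holds 6 long non-coding RNAs, among them LINC00673 and LINC00511, and 1 pseudogene. That table is of another build than the peaks. It was used for names and order only, and no peak below is assigned to any gene except by the SOX9 interval of the rule. The list stops at 10 genes on each side. It may therefore leave out genes of the flanks or name genes that lie beyond them.

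SOX9 itself carried 1 low-scoring peak in 1 library. In the DHT library 1 peak lay within the SOX9 interval, at chr17:70120268-70120561, 294 bp wide with a score of 51.75. In the untreated library there was none. The DHT peak stood close to the lowest score in its list, with 3.55% of all DHT peaks at or below that score. It covered 4.90% of the 6 kb interval (0% to 14.5%), beside 4.92% of chromosome 17 and 2.13% of the genome covered by DHT peaks. That share rests on 1 peak in a short interval, so its nearness to the value of chromosome 17 carries no meaning. Over the whole genome cut into intervals of the same size, 18.0% held a DHT peak and 16.6% an untreated peak, while 5.84% held a DHT peak without an untreated one and 4.52% the reverse. Intervals of 6 kb in the desert held a DHT peak in 2.85% of cases and an untreated peak in 2.85%. In the flank before the desert a DHT peak was found in 19.7% and an untreated peak in 17.5% of intervals, and in the flank after SOX9 a DHT peak in 35.1% and an untreated peak in 29.8%. The SOX9 interval belonged to the group with a DHT peak only, and no difference between the conditions is called from 1 peak.

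Peaks around SOX9 were few and low in their lists. Within 100 kb of the SOX9 interval there were 2 DHT peaks and 3 untreated peaks, and none overlapped a peak of the other library. Over all chromosomes 48.5% of DHT peaks and 52.3% of untreated peaks were overlapped. In windows of 100 kb with at most 2 peaks of either library, 13.9% of DHT peaks and 15.2% of untreated peaks were. The lack of overlap is therefore not read as a trait of SOX9. The second DHT peak lay at chr17:70181834-70182133, 58.8 kb after the interval, with a score of 54.92. On the other side the nearest DHT peak was 175 kb away, at chr17:69941295-69941634. In the untreated library the nearest peak after SOX9 lay 15.9 kb away, at chr17:70138921-70139219, with a score of 51.66. The nearest before it lay 31.4 kb away, at chr17:70085251-70085560, with a score of 67.29, followed at 43.3 kb by one at chr17:70073414-70073681 with a score of 55.77. All 5 were 268 to 310 bp wide, and each scored below the median of its list, 85.71 after DHT and 81.23 without treatment. The untreated peak of score 67.29 was the highest-ranked of the 5, with 33.5% of its list at or below it.

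**Figure D1:**
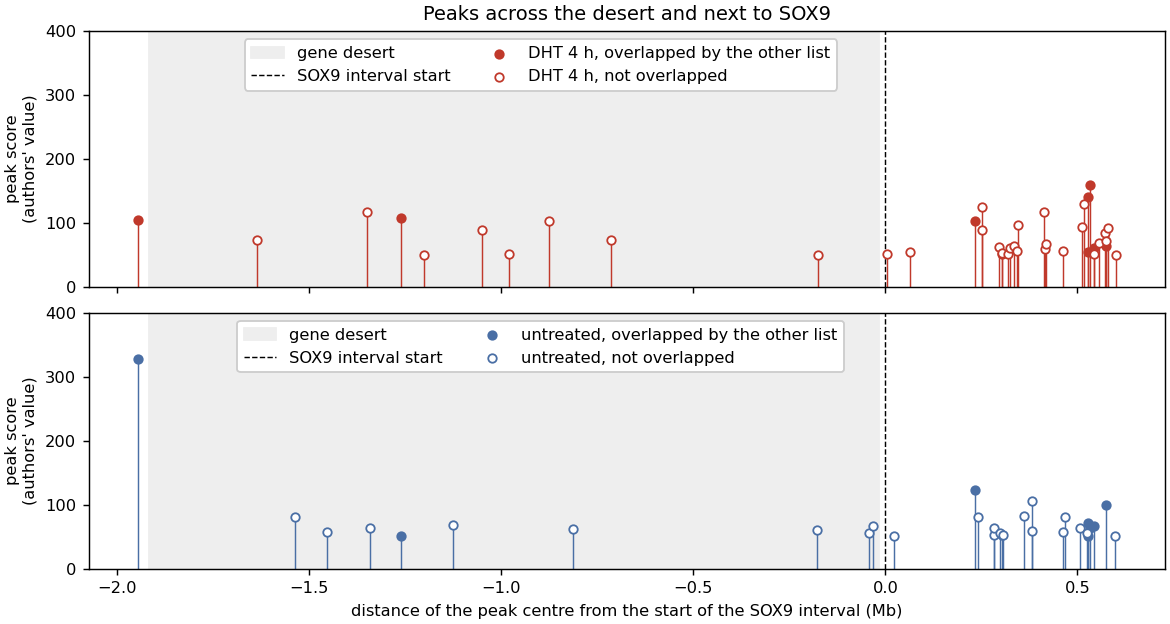
Each stem is 1 peak, placed by the distance of its centre from the start of the SOX9 interval in Mb (horizontal axis) and by the authors' score (vertical axis), for the DHT library (top) and the untreated library (bottom). Filled points are overlapped by a peak of the other list. The desert (grey) holds 9 peaks in each library and 1 overlapping pair, and the score of 328.57 just before it belongs to the untreated library.

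The gene desert held 9 peaks in each library over 1900 kb, or 4.74 peaks per Mb (2.17 to 8.99) in both. They covered 2634 bp in the DHT library and 3150 bp in the untreated library, which is 0.139% of the desert after DHT and 0.166% without treatment. Covered length in the DHT library was 0.836 times that in the untreated library (0.323 to 2.16), an interval that includes 1. The value was 0.516 with the DHT list trimmed, lowest scores first, to the covered length of the untreated list. That left 6 DHT and all 9 untreated peaks in the desert. With the desert narrowed by 100 kb at each side the ratio was 1.02. The flanks combined held 12.8 times as many peaks per Mb as the desert in the DHT library and 10.6 times as many in the untreated library. Their covered share was 17.2 times that of the desert after DHT and 15.1 times without treatment.

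The 9 DHT peaks of the desert were single, narrow and far apart. Starting from the side away from SOX9, the first was chr17:68480627-68480925, with a score of 73.09. Then came chr17:68768409-68768574, which was only 166 bp wide but had the highest DHT score of the desert, 116.85. The third, at chr17:68857529-68857853, scored 107.83. These were followed by peaks of score 50.57 at chr17:68916965-68917301, 88.80 at chr17:69067992-69068256 and 51.23 at chr17:69136729-69137059. The widest, 351 bp at chr17:69241518-69241868, scored 103.00. The last were a peak of score 73.98 at chr17:69404182-69404401 and one of score 50.24 at chr17:69941295-69941634. In all, 3 of the 9 scored at least 100, which 39.4% of all DHT peaks did. The median distance from a DHT peak of the desert to the next DHT peak was 88.95 kb, against 1.39 kb in the flank before the desert and 2.44 kb in the flank after SOX9.

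The 9 untreated peaks lay mostly at other places. The first, at chr17:68580443-68581039, was the widest of the desert in either library, at 597 bp, and had the highest untreated score there, 80.70. Next were peaks of score 57.70 at chr17:68664649-68664965 and 63.11 at chr17:68775830-68776169. The fourth, at chr17:68857355-68857659, scored 50.92. It was overlapped over 131 bp by the DHT peak of score 107.83, and this was the single overlapping pair of the desert. Further on lay peaks of score 68.53 at chr17:68991452-68991879, 61.82 at chr17:69304066-69304352 and 60.26 at chr17:69938963-69939260. The last was 2.03 kb from the nearest DHT peak, and the untreated peak of score 63.11 was 7.26 kb from one. The remaining untreated peaks of the desert were the pair already given beside SOX9. No untreated peak of the desert reached a score of 100, which 35.1% of all untreated peaks did, and their median was 61.82. The DHT median was 73.98.

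In the desert 11.1% of DHT peaks (1 of 9, Wilson interval 1.99% to 43.5%) and the same share of untreated peaks were overlapped by the other list. Over all chromosomes the shares were 48.5% of DHT peaks and 52.3% of untreated peaks. In both flanks together they were 41.9% (35.7% to 48.4%) of DHT peaks and 47.9% (40.9% to 55.0%) of untreated peaks. Taken singly, the flank before the desert gave 50.9% (41.6% to 60.3%) of DHT peaks and 52.1% (42.1% to 61.9%) of untreated peaks. The flank after SOX9 gave 34.1% (26.4% to 42.9%) of DHT peaks and 43.8% (34.3% to 53.7%) of untreated peaks. Its DHT interval lay below the DHT share over all chromosomes. The desert was set against other thinly marked sequence after these shares had been seen. Over the genome, 6702 DHT and 6155 untreated peaks lay in windows of 100 kb with at most 2 peaks of either library, and 13.9% of those DHT peaks (13.1% to 14.7%) and 15.2% of those untreated peaks (14.3% to 16.1%) were overlapped. The interval of the desert is wide enough to include these values and the DHT share of the flanks together. Thus 1 of 9 does not separate the desert from these. The untreated share of the flanks together and both shares over all chromosomes lie above the desert's interval. The untreated intervals of the desert and of the flanks together still meet. The desert's ends at 43.5% and that of the flanks together starts at 40.9%. Peaks in those windows were also narrow and low in their lists, with median widths of 303 bp after DHT and 299 bp without treatment and median scores of 70.66 after DHT and 64.38 without treatment.

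Sparse as it was, the desert was not the barest sequence of the genome. The genome was cut into 1617 windows of 1.9 Mb, the length of the desert, with unassembled sequence included. These windows had a median of 63 DHT and 60 untreated peaks. In the DHT library 17.4% of them held 9 peaks or fewer, and in the untreated library 17.4% did so too. Windows with no peak at all numbered 121 in the DHT library and 137 in the untreated library, and those with 1 to 9 peaks made up 9.96% of all windows after DHT and 8.97% without treatment. Of the 19 windows of 100 kb in the desert, 6 (31.6%) had no peak of either library and 5 (26.3%) had DHT peaks only. Untreated peaks only were found in 4 (21.1%), and 4 (21.1%) had both. Over the genome, again with unassembled sequence included, 36.2% of such windows were empty in both libraries. DHT peaks only were found in 8.45% of the genome's windows, untreated peaks only in 7.05% and both in 48.3%. None of the desert's windows held more than 2 peaks of 1 library.

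The longest stretch without a peak of either library ran from 69404402 to 69938962, in the part of the desert nearer to SOX9, and measured 534.6 kb. Over the genome, 544 of the 183920 stretches between neighbouring peaks, or 0.296%, were at least that long, with unassembled sequence included. The median stretch was 3.02 kb. The share thus counts stretches, most of them short, and is not a share of sequence length. Other peak-free stretches within the desert ran for 131.8 kb from 69941635 to 70073413 and for 104.5 kb from 69137060 to 69241517. The next ran for 103.4 kb from 68664966 to 68768408 and for 99.8 kb from 69304353 to 69404181. Long peak-free stretches were not limited to the desert: the second longest of the interval, 337.4 kb from 66741820 to 67079214, and another of 252.9 kb from 67533238 to 67786166 lay in the flank before it. A stretch of 308.7 kb, from 68171905 to 68480626, crossed the border with the flank before the desert. Just before that border lay 1 site shared by both libraries. The untreated peak at chr17:68171094-68171904, 811 bp wide, scored 328.57, which placed it above 98.0% of its list or level with it. The DHT peak at the same place, chr17:68171169-68171620, was 452 bp wide and scored 105.50, with 63.7% of its list at or below. It lay wholly within the untreated peak.

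**Figure D2:**
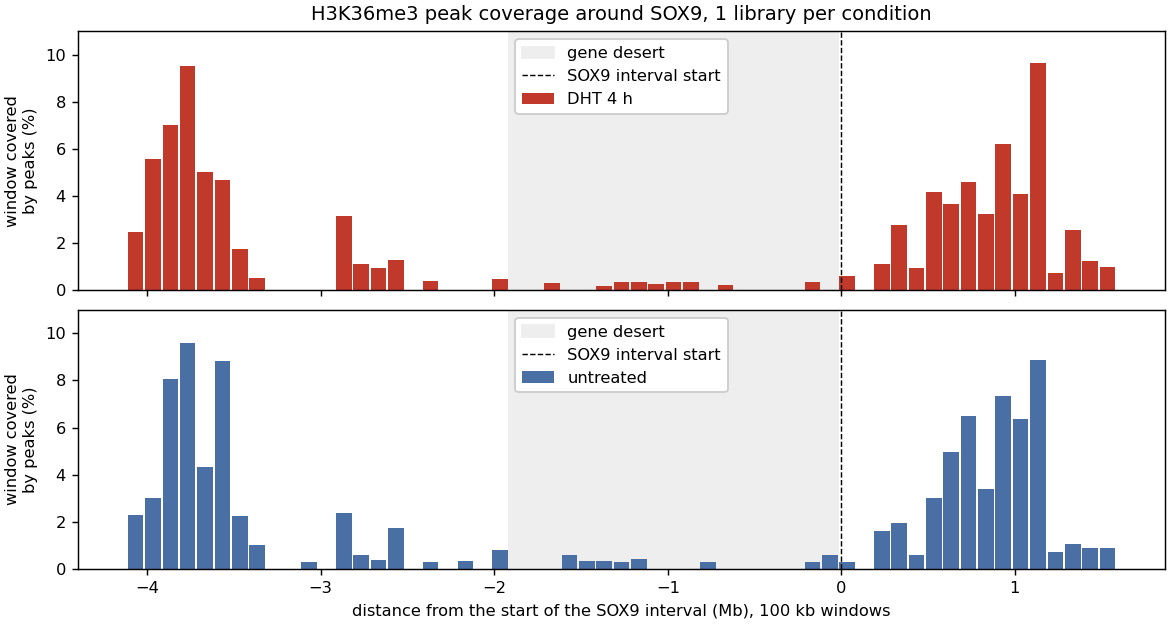
Bars give the share of each 100 kb window covered by H3K36me3 peaks, in percent, for the DHT library (top) and the untreated library (bottom), against the distance from the start of the SOX9 interval in Mb. The highest window reaches 9.64% after DHT, in the flank after SOX9, and 9.60% without treatment, in the flank before the desert, and coverage is at most 0.597% in any window of the desert.

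Both flanks were marked. The flank before the desert held 106 DHT peaks, or 48.2 per Mb (39.4 to 58.3), and 94 untreated peaks, or 42.7 per Mb (34.5 to 52.3). The flank after SOX9 held 123 DHT peaks, or 78.0 per Mb (64.8 to 93.1), and 96 untreated peaks, or 60.9 per Mb (49.3 to 74.3). Chromosome 17 as a whole held 78.9 per Mb after DHT and 64.1 without treatment, and the genome 42.6 after DHT and 38.0 without treatment. Peaks covered 1.997% of the flank before the desert after DHT and 2.10% without treatment. They covered 2.93% of the flank after SOX9 after DHT and 3.07% without treatment. Both flanks were less covered than chromosome 17, at 4.92% after DHT and 4.60% without treatment. The flank after SOX9 was more covered than the genome, at 2.13% after DHT and 2.08% without treatment, and the flank before the desert was close to it.

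**Figure D3:**
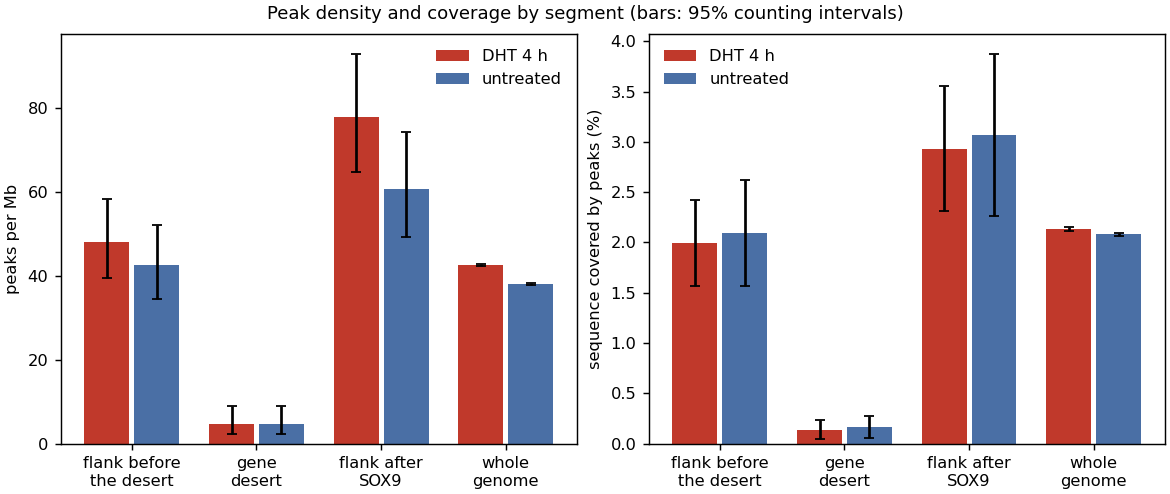
Peaks per Mb (left) and percent of sequence covered by peaks (right) in the flanks, the desert and the whole genome, with the DHT bar left of the untreated bar. Error bars are 95% counting intervals, which cover no spread between libraries. In both libraries the desert bars stand below those of either flank with intervals that do not meet, and the DHT and untreated intervals meet in each of the 3 segments.

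Within the flanks the mark was unevenly spread, as shown here for stretches whose borders were chosen after the windows had been seen, so their densities are a description. From 66 to 66.8 Mb there were 84 DHT and 73 untreated peaks, which covered 4.57% of the sequence after DHT and 4.92% without treatment. From 66.8 Mb to the desert there were 22 DHT and 21 untreated peaks, which covered 0.526% after DHT and 0.484% without treatment. That part was not evenly sparse. Its window from 67.2 to 67.3 Mb alone held 10 DHT and 8 untreated peaks and was 3.15% covered after DHT and 2.35% without treatment, above the genome's 2.13% after DHT and 2.08% without treatment. After SOX9, from 70.123 to 70.3 Mb, there was 1 peak in each library. The stretch from 70.3 to 71.3 Mb held 104 DHT and 87 untreated peaks, which covered 4.04% after DHT and 4.46% without treatment. From 71.3 to 71.7 Mb there were 18 DHT peaks and 8 untreated peaks, which covered 1.38% after DHT and 0.869% without treatment, and 8 of those DHT peaks and 2 of the untreated ones lay in the window from 71.4 to 71.5 Mb.

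As over the genome, the DHT library had more and narrower peaks in the interval. Peak number was 1.20 times that of the untreated library, 239 after DHT against 199 without treatment, beside 1.12 times over the genome and 1.23 times on chromosome 17. The covered length was 93.1 kb in the DHT library and 97.7 kb in the untreated library, a ratio of 0.953 (0.757 to 1.20). The genome as a whole gave 1.03 (1.01 to 1.04), and chromosome 17 gave 1.07 (1.01 to 1.13). In the flank before the desert it was 0.953 (0.684 to 1.33) and in the flank after SOX9 0.955 (0.681 to 1.34). Median width was 338 bp after DHT and 373 bp without treatment. Over the genome it was 354 bp after DHT and 374 bp without treatment, and on chromosome 17 it was 406 bp after DHT and 468 bp without treatment, so narrower DHT peaks were not limited to the interval. The desert was an exception, with 9 peaks in each library and median widths of 325 bp after DHT and 310 bp without treatment. Peaks of at least 1 kb numbered 5 after DHT, or 2.09%, and 9 without treatment, or 4.52%, all of them in the flanks. Over the genome such peaks made up 7.82% of the DHT list and 10.3% of the untreated list, and on chromosome 17 they made up 13.3% of DHT peaks and 18.1% of untreated peaks.

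Windows of 100 kb differed between the libraries at shares near those over the genome, and the numbers moved with the settings. Of the 57 windows of the interval, 17 reached 2 kb of covered length in 1 library or both and were compared. In 2 of them, or 11.8%, coverage after DHT was higher by 1.5-fold or more, beside 14.3% over the genome, and in 2 it was lower by as much, beside 12.6%. With each list first joined at 5 kb, 7 of 23 windows were higher after DHT and 5 lower. At the same covered length 2 of 17 were higher and 4 lower. Shares over the genome were not computed at these changed settings. None of the compared windows lay in the desert. The higher windows were those from 66.1 to 66.2 Mb, with 5580 bp covered after DHT and 2994 bp without treatment, and from 71.4 to 71.5 Mb, with 2569 bp after DHT and 1056 bp without treatment. The lower ones were those from 66.5 to 66.6 Mb, with 4689 bp after DHT and 8841 bp without treatment, and from 71.1 to 71.2 Mb, with 4080 bp after DHT and 6366 bp without treatment.

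Peaks of either library with gaps of 5 kb or less between them were merged into blocks. The interval held 16 blocks of at least 10 kb, 9 before the desert and 7 after SOX9. The desert had 16 shorter blocks, and its longest measured 2.67 kb. Of the 16 long blocks in the flanks, the 12 that reached 2 kb of covered length in 1 library or both were compared. Coverage after DHT was higher by 2-fold or more in 0 of them, beside 7.00% over the genome, and lower by as much in 1, beside 4.66%. The 12 blocks were evenly split, with 6 more covered after DHT and 6 less covered. Of the 7183 blocks compared over the genome, 3318 were more covered after DHT and 3863 less covered.

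The longest block, which was also the most covered when both libraries are summed, ran for 31.0 kb from 66509116 to 66540135, with 4689 bp covered after DHT and 8047 bp without treatment. It held the highest-scoring peak of the interval in each library. In the DHT library this was chr17:66526382-66526711, with a score of 433.44, above or level with 98.8% of the list. In the untreated library it was chr17:66526177-66526758, with a score of 471.75, above or level with 99.5% of the list, and it contained the DHT peak. The widest peak of the interval was also here and was untreated, 3235 bp at chr17:66535216-66538450. DHT peaks of 865 and 890 bp lay within it and covered 1755 bp of it, so a wide peak in the untreated list stood opposite shorter, separate peaks in the DHT list.

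The block past 2-fold lay after SOX9, from 71192622 to 71205954, with 3233 bp covered after DHT and 7325 bp without treatment, a ratio of 0.441. The untreated library had peaks of 2825 bp at chr17:71192622-71195446 and 2843 bp at chr17:71195507-71198349, only 0.06 kb apart. The first of these had no DHT peak, with a score of 94.56, above or level with 61.5% of its list. The second, with a score of 173.29, was overlapped over 2217 bp by DHT peaks of 1468 and 782 bp. At the far end of the block both libraries had a peak, chr17:71205557-71205954 after DHT, with a score of 263.81, and chr17:71205594-71205949 without treatment, with a score of 68.03. The block therefore differed at its start and was shared at its end.

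The other well-covered blocks of at least 10 kb differed by less than 2-fold, in either direction. From 71280507 to 71296571, 4884 bp were covered after DHT and 3866 bp without treatment. This block held the widest DHT peak of the interval, 2053 bp at chr17:71280831-71282883 with a score of 313.91, and an untreated peak of 1622 bp at chr17:71281018-71282639 with a score of 59.06. From 70806924 to 70834284, 2338 bp were covered after DHT and 3461 bp without treatment, a ratio of 0.676. Among the compared blocks the ratio nearest to a 2-fold gain, 1.90, was found from 71230994 to 71244943, with 2784 bp after DHT and 1464 bp without treatment. The block from 71019170 to 71033825 had 1861 bp after DHT and 1656 bp without treatment, which was too little to be compared. Blocks under 10 kb were not compared either, though some were as well covered. From 71079028 to 71085120, over 6.09 kb, 1413 bp were covered after DHT and 3212 bp without treatment, a ratio of 0.440. From 66033887 to 66043622, over 9.74 kb, 2458 bp were covered after DHT and 2294 bp without treatment, a ratio of 1.07. Before the desert, the block from 66265837 to 66281836 had 3619 bp after DHT and 3698 bp without treatment. The one from 66424366 to 66439075 had 2678 bp after DHT and 2620 bp without treatment. From 66339328 to 66353366 there were 2334 bp after DHT and 2726 bp without treatment, and from 66363329 to 66376717 there were 2926 bp after DHT and 2009 bp without treatment. The ratios of these 4 blocks ran from 0.856 to 1.46.

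**Figure D4:**
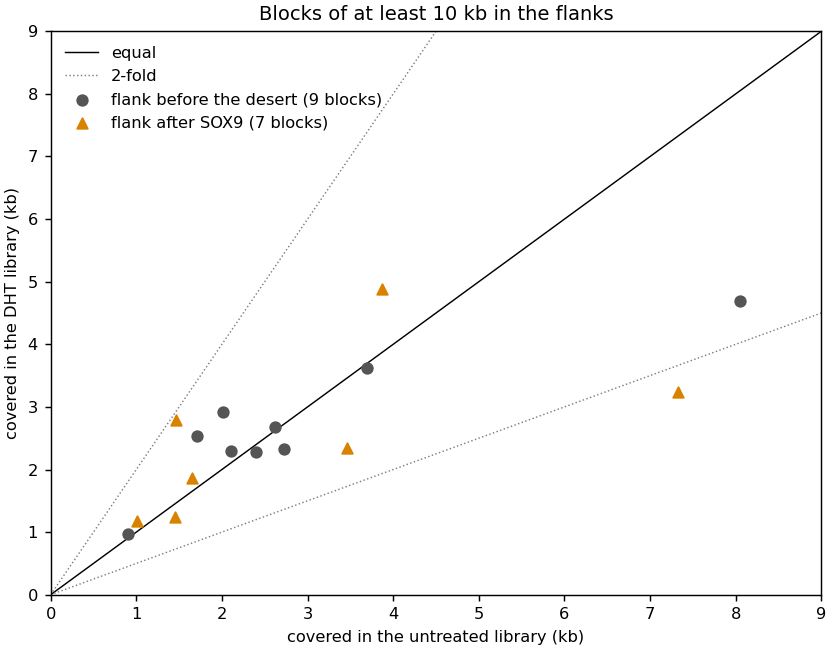
Each point is 1 of the 16 blocks of at least 10 kb, with the length covered by peaks of the untreated library (horizontal axis, kb) and of the DHT library (vertical axis, kb); circles lie before the desert and triangles after SOX9. The solid line marks equal coverage and the dotted lines 2-fold differences, and 1 triangle, with 3233 bp after DHT and 7325 bp untreated, lies beyond them.

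Over the whole interval, peaks overlapped by the other list had higher median scores and widths than the others; wider peaks also meet a 1 bp overlap more readily. The desert's untreated peaks were an exception, since the overlapped one scored 50.92 at 305 bp wide, against medians of 62.5 and 314 bp for the other 8. In the DHT library 97 of the 239 peaks were overlapped, with a median score of 96.25 and a median width of 390 bp. The other 142 had medians of 66.99 and 319 bp. In the untreated library 92 of the 199 were overlapped, with medians of 88.86 and 460 bp, and the other 107 had medians of 64.06 and 332 bp. Peaks without a counterpart in the flanks usually lay near one. In the flank before the desert the median distance from such a peak to the other list was 2.96 kb for DHT peaks and 2.58 kb for untreated peaks, and in the flank after SOX9 it was 4.19 kb for DHT peaks and 2.75 kb for untreated peaks. In the desert it was 69.2 kb for DHT peaks and 54.4 kb for untreated peaks.

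**Figure D5:**
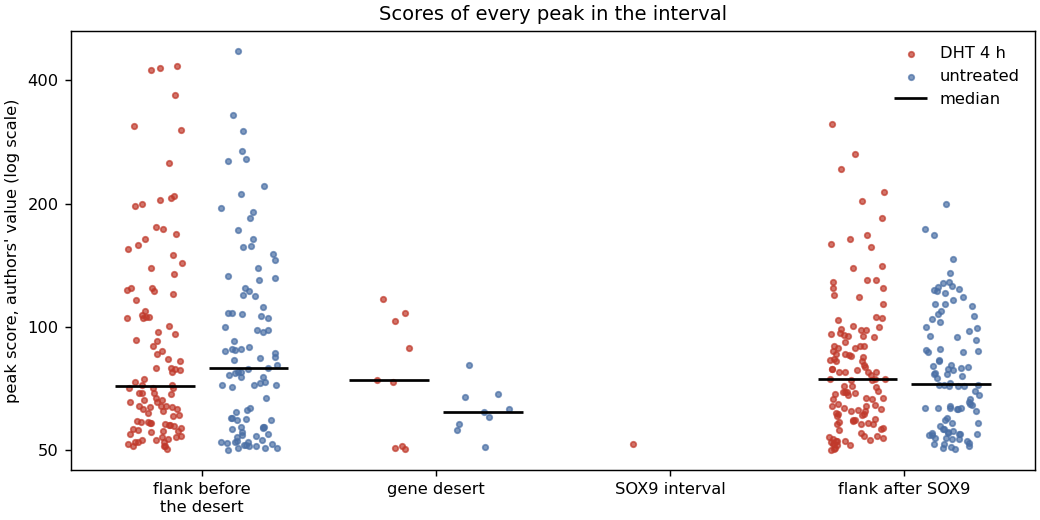
Points are the authors' scores (vertical axis, log scale) of all peaks in each segment, with the DHT library left of the untreated library and horizontal lines at the medians. Desert scores end at 116.85 after DHT and 80.70 without treatment, while those of the flank before the desert reach 433.44 after DHT and 471.75 without treatment. The libraries share an axis although the scale of the scores is not stated. The SOX9 interval shows the lone DHT peak at 51.75.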

How the data were processed

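Peaks from ChIP-seq of 1 DHT-treated and 1 untreated LNCaP library were used. The labels also name an input library, which was not analysed here. The authors deposited 1 peak list per library, in which every peak has a score. The caller was MACS, per the peak names in the deposited lists, and coordinates are in hg19, per the names of the files. No source used here states the caller's version, settings or control, the aligner or the depth. A caller that makes short peaks can split a broad domain of this mark, and absence from a list says only that a place did not pass the caller's threshold.

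Only peaks of nuclear chromosomes were kept, and covered length was clipped at segment borders. Densities and covered shares over the genome count unassembled sequence in the length. Overlap needed at least 1 bp, and counts were checked with bedtools 2.31.1. Peak numbers carry exact Poisson intervals and shares Wilson intervals (Python 3.11.15, SciPy 1.17.1, statsmodels 0.14.6, NumPy 2.4.6). For covered length and its ratio, the variance was taken as the sum of squared peak widths. The functions were tested on simulated data. Windows (at least 2 kb covered, 1.5-fold) and blocks (joined at 5 kb, at least 10 kb long, at least 2 kb covered, 2-fold) were compared without a test. Named regions were all peaks within 100 kb of SOX9, peaks and long peak-free stretches of the desert, and blocks of each flank. Among blocks of at least 10 kb, these were the 5 most covered in each flank and those past 2-fold. Shorter flank blocks are named only where their length is given. Named neighbours were the 10 protein-coding genes on each side. The interval and these rules were chosen with earlier results of these data known. No annotation or sequence of hg19 was used, so the label of the flanks as gene-bearing was not checked and no sequence is printed.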

Additional observations from a re-analysis of the deposited data

How the results depend on the processing

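No paired analysis was possible because each condition has 1 library and no result comes from a test. The desert was less covered than the flanks in every list tried. The flanks' covered share was 18.4 times the desert's after DHT in the higher-scoring 50% of each list, where the untreated desert had no peak left. It was 26.8 times after DHT and 15.1 times untreated at the same covered length, 20.5 times after DHT and 17.7 times untreated joined at 1 kb, and 56.7 times after DHT and 41.9 times untreated joined at 5 kb. Moving the desert's borders by 10 or 100 kb left every segment value within its counting interval.

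The higher-scoring 50% of each list holds fewer peaks by construction. Before the desert it gave 19.1 DHT and 20.5 untreated peaks per Mb, covering 0.932% after DHT and 1.19% untreated. After SOX9 it gave 26.0 DHT and 22.8 untreated peaks per Mb, covering 1.26% after DHT and 1.49% untreated. The desert had 2.11 DHT and 0 untreated peaks per Mb, with 0% covered untreated and 0% of its DHT peaks overlapped. The SOX9 interval had 0 DHT peaks and 0 bp covered after DHT, so its lone peak is in the lower-scoring part of the list. Of 10 windows compared, 1 was higher after DHT and 4 were lower, and of 2 blocks compared, 2 were lower. For windows and blocks, no share over the genome was computed under this or any other changed setting. Such counts are therefore not read as a trait of the interval.

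At the same covered length, where only the DHT list was trimmed, 4 windows were lower after DHT, against 2 in the full lists. The desert then had 6 DHT peaks. Joining at 1 kb gave 38.2 DHT and 33.6 untreated peaks per Mb before the desert, 63.4 DHT peaks per Mb covering 3.62% after SOX9, and 4 windows lower after DHT. Joining at 5 kb, which adds the joined gaps to the covered length, gave 20.9 DHT and 20.5 untreated peaks per Mb before the desert, covering 6.71% after DHT and 5.77% untreated. After SOX9 it gave 42.5 DHT and 34.2 untreated peaks per Mb, covering 9.47% after DHT and 8.61% untreated, and 44.8% of DHT and 55.6% of untreated peaks were overlapped. There 7 windows were higher after DHT and 5 lower.

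An overlap of 50% of the peak left 0% of the desert's DHT peaks and 0% of its untreated peaks overlapped. The SOX9 interval widened by 50 kb held 3 untreated peaks over 877 bp, and widened by 10 kb it held 0. With windows of 50 kb, 5 were lower after DHT. With 5 kb covered, 9 windows were compared and 1 was higher. At 2-fold, 1 window was higher and 0 were lower. At 1.5-fold, 1 block was higher and 2 were lower. Joined at 1 kb, 0 blocks were long enough to be compared and 0 were lower. Where a setting neither removes peaks nor adds gaps, the cause of a change was not tested. Unknown read depth limits all of these values, since a place without a peak may lie just under the caller's threshold.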
